A study of Homo sapiens with 15 samples.

Results

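FGF19, FGF21 and the receptors through which they act were followed in HepG2, a human liver cancer cell line. The set was given by name and holds 7 genes of the 39133 in the table: the hormones FGF19 and FGF21, the co-receptor KLB, and the receptors FGFR1, FGFR2, FGFR3 and FGFR4. All 7 had a row, and 6 passed the filter on low counts, FGF21 being the exception. The study asked what sodium butyrate, a short-chain fatty acid that inhibits histone deacetylases, does in cells made insulin resistant with palmitate, a saturated fatty acid.

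The 15 libraries form 5 groups of 3. Palmitate with butyrate at 0.5 mM (low), 1 mM (medium) or 1.5 mM (high) made up 3 of them, palmitate alone was the fourth, and the fifth was untreated control. The labels write the palmitate dose as 200 mM, a unit that could not be checked. All cells carried the wild type genotype of the line, belonged to 1 batch by the labels and were harvested at 48 h. By their library names, butyrate cultures spent 24 h in palmitate followed by 24 h with butyrate, while the palmitate group spent 48 h in palmitate, so this difference in schedule and butyrate itself cannot be told apart. No group had butyrate without palmitate. The series text speaks of biological replicates; all p-values measure the spread between these libraries.

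FGF19 and FGF21 are hormones among the fibroblast growth factors. Unlike most of the family they bind heparan sulfate weakly, travel in the blood, and need KLB (beta-Klotho), a single-pass membrane protein, beside an FGF receptor tyrosine kinase. FGF19 is made by the ileum when bile acids activate the nuclear receptor FXR, and in the liver, through FGFR4 and KLB, it represses bile acid synthesis. FGF21 is made by the liver in fasting and under stress, under PPARA and ATF4, and acts through KLB with FGFR1 on fat tissue and brain.

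Butyrate libraries held more RNA of KLB, FGFR1, FGFR2 and FGF19 than palmitate libraries at each of the 3 doses (edgeR quasi-likelihood test, called at a Benjamini-Hochberg adjusted p under 0.05 over all genes tested). FGF19 and FGFR2 passed the filter on low counts only through butyrate libraries, so their calls over palmitate are a description. KLB was 2.19-fold higher at low butyrate and stayed near that level with dose, whereas FGFR1 and FGFR2 were higher again at the high dose, 2.94-fold and 38.5-fold over palmitate. FGFR4, the most abundant receptor, was 1.34-fold higher at low butyrate and 1.35-fold higher at medium butyrate, and lower at high than at medium butyrate. FGFR3 was not called over palmitate at low or medium butyrate. At high butyrate it was called lower by small changes, with a log2 change of -0.23 over medium butyrate and -0.25 over control. Its call over palmitate there (-0.18) was lost in 11 of 16 alternatives. FGF21 was at or near 0 in all 15 libraries. Palmitate against control called none of the 7.

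Promoter sequences are shown for 4 members that span these patterns. KLB and FGFR2 were higher at every dose, FGFR3 had no higher call, and FGF21 was near 0. Each is 300 bases from RefSeq on GRCh38.p14, 250 before and 50 after the start of transcription, written in the direction of the gene. Capitals mark GC boxes, the letters GGGCGG or CCGCCC, which are found in 45.0% of the 35116 RefSeq promoters of that length. Positions are chr4:39406680-39406979 (plus strand) for KLB, chr10:121598395-121598694 (minus strand) for FGFR2, chr4:1793043-1793342 (plus strand) for FGFR3 and chr19:48755274-48755573 (plus strand) for FGF21. FGFR2 is shown at the most upstream of its 5 listed starts.
KLB: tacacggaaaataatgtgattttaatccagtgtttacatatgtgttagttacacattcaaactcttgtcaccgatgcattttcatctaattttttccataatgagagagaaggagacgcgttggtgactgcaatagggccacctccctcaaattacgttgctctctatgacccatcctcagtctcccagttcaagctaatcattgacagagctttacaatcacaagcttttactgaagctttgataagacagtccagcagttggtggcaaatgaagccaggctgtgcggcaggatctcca
FGFR2: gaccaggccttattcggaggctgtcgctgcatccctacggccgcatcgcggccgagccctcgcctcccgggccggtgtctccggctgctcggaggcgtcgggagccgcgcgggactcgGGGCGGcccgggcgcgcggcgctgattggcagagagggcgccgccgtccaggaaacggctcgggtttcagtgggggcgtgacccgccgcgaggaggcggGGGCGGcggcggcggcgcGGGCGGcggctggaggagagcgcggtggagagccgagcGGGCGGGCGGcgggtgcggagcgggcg
FGFR3: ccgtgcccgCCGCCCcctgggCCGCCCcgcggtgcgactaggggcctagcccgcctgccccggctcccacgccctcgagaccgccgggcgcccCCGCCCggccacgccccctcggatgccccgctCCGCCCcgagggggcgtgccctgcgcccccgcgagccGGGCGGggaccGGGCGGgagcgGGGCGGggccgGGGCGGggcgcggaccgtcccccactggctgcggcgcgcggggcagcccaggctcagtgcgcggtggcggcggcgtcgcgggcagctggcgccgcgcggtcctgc
FGF21: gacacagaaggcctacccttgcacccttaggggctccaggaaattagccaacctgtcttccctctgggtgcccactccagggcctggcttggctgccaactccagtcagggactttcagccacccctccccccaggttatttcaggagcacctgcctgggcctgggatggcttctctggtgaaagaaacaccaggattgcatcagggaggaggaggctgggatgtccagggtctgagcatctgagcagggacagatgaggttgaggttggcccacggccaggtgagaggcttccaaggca

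The KLB promoter was the poorest in G and C of the 4, with 42.3% GC, 6 CpG dinucleotides and no GC box. The FGFR2 promoter had 79.3% GC, 52 CpG dinucleotides and 5 GC boxes. FGFR3 was the richest, with 86.3% GC, 51 CpG dinucleotides and 8 GC boxes. FGF21 had 60.0% GC, 1 CpG and no GC box, and the FGFR4 promoter, at the first of 2 starts and not printed, had 78.7% GC, 30 CpG dinucleotides and 7 GC boxes. Across all promoters the median was 58.7% GC and 14 CpG dinucleotides, so members that were higher with butyrate lay on both sides of it. None of these 5 windows held TATAAA (11.5% of all promoters), the nuclear receptor half-site AGGTCA (13.8%) or the E-box CACGTG (7.26%) on either strand. CCAAT, present in 34.6% of all, occurred once, in FGFR2. FGF19 and FGFR1 were not matched in the promoter table. The letters describe these windows only.

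Levels are compared between genes in FPKM, the authors' counts scaled by gene length and library total, and between groups in CPM, counts scaled to library size after TMM. Groups without overlap in CPM were common. Over palmitate this held for 53.6% of the 20309 genes tested at low, 53.7% at medium and 72.1% at high butyrate. It held for 63.6% in high over medium butyrate and 75.2% in high butyrate over control. By mean FPKM the order was FGFR4, FGFR3, KLB, FGFR1 in each of the 5 groups. At high butyrate these averaged 59.1 ± 2.39, 27.5 ± 1.83, 16.8 ± 0.735 and 5.76 ± 0.213 FPKM (SD, n = 3), and in control 51.9 ± 0.456, 31.2 ± 0.276, 8.22 ± 0.458 and 1.89 ± 0.142 FPKM. FGF19 reached at most 0.241 FPKM in any library and FGFR2 at most 0.14 FPKM. Their order relative to each other depended on gene length. At high butyrate FGF19 averaged 0.144 and FGFR2 0.133 FPKM, but 0.107 and 0.329 with the merged exon lengths of GENCODE 29, where FGFR2 is 7578 bases long against 18813 bases behind the deposited values.

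**Figure D1:**
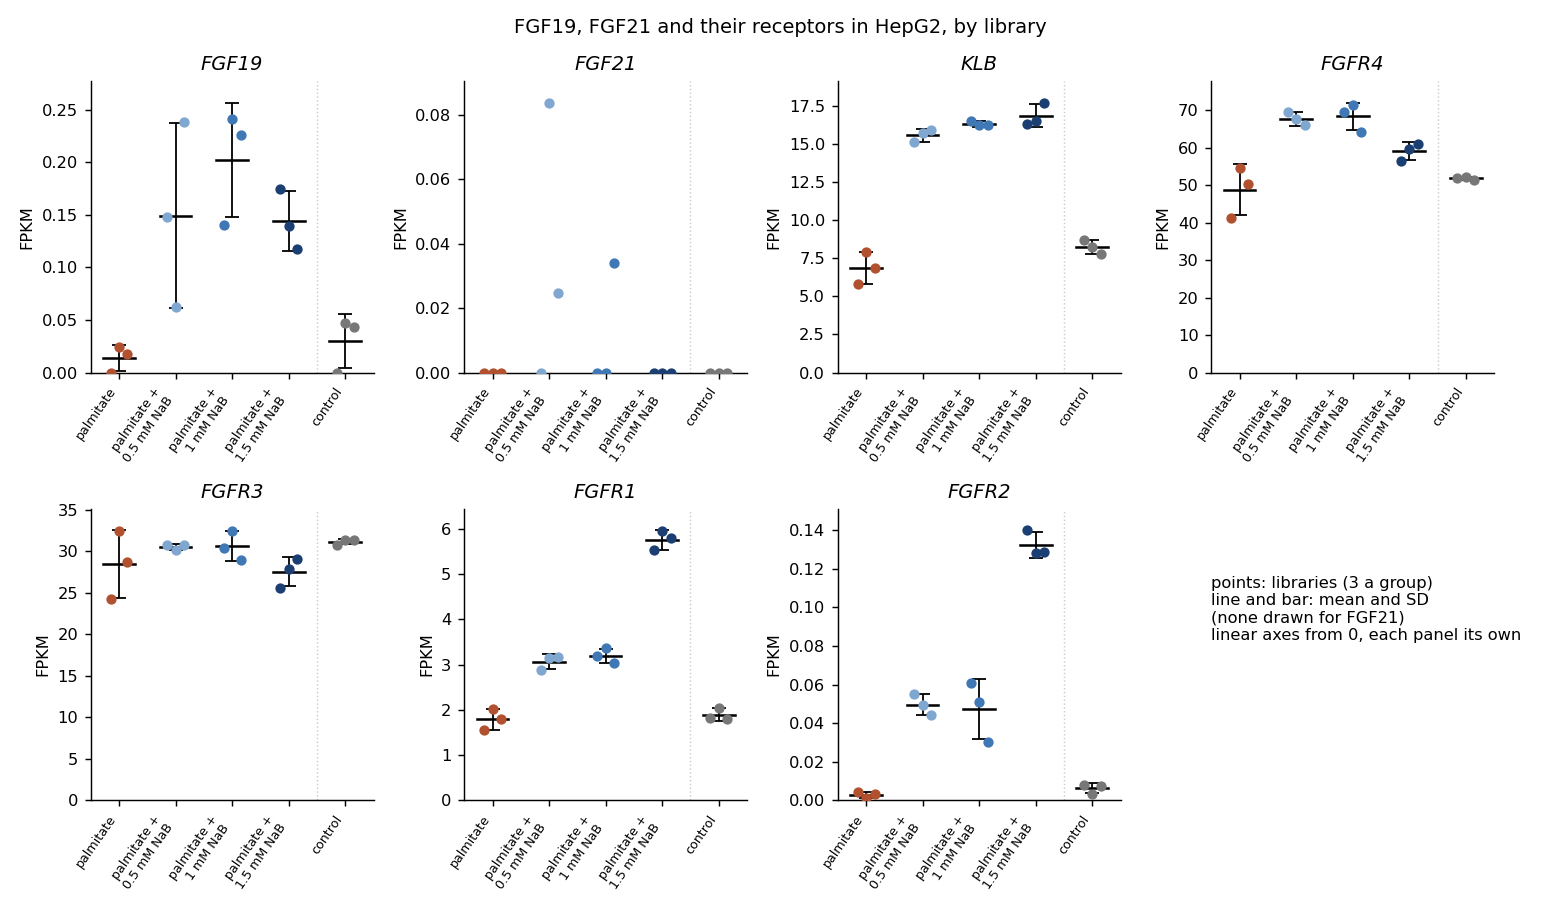
FPKM of the 7 genes (y axis, linear from 0, each panel its own scale) in palmitate, palmitate with 0.5, 1 or 1.5 mM sodium butyrate (NaB), and control (x axis); points are libraries, line and bar the mean and SD of 3. KLB sits between 15.1 and 17.7 FPKM in the 9 butyrate libraries and between 5.78 and 8.68 FPKM in the other 6. FGFR3 in palmitate overlaps every other group, and FGFR3 at high butyrate lies below low butyrate and control.

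The endocrine ligand FGF19 (ENSG00000162344, GRCh38 chromosome 11, 69698232 to 69704642, minus strand, 3 exons) was rare everywhere. Its counts were 0, 2 and 2 in the palmitate libraries, 12, 4 and 26 at low, 10, 22 and 18 at medium and 14, 12 and 10 at high butyrate, and 0, 4 and 4 in control. Each butyrate library was above each palmitate and control library in CPM. A lack of overlap with palmitate was shared by 53.6% of all genes at low, 53.7% at medium and 72.1% at high butyrate. No palmitate or control library reached the minimum of the filter on low counts. The edgeR calls of FGF19 over palmitate and control are therefore a description. In edgeR the log2 change over palmitate was 3.31 at low (SE 0.798, adjusted p = 0.00165), 3.69 at medium (SE 0.782, adjusted p = 0.000463) and 3.12 at high butyrate (SE 0.809, adjusted p = 0.00167). High butyrate over control gave 2.13 (SE 0.722, adjusted p = 0.0125), a call that was lost without control library 1 (adjusted p = 0.0542).

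Doses did not separate for FGF19. Medium over low butyrate had a log2 change of 0.38 (adjusted p = 1.0) and high over medium of -0.57 (adjusted p = 0.418). All 13 of its counts above 0 were even, as for a gene whose 2 mates of each pair were counted, so the 50 counts at medium butyrate would be 25 pairs and the 4 in palmitate 2 pairs. The ratio of scaled sums, medium butyrate over palmitate, was 14.3, with an exact 95% interval of 3.55 to 124.0 in pairs, and for high butyrate 9.43 (2.26 to 83.8). Such intervals cover counting error only.

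FGF19 is an ileal product, so the markers of ileal enterocytes are given beside it. Of 7 markers listed, 6 had a row and 5 were tested. ALPI, CDX2 and FABP6 passed the filter on low counts only through butyrate libraries, so they had to be higher there. VIL1 and APOA4 did not depend on them and rose at all 3 doses, where 49.9% (low), 51.5% (medium) and 71.5% (high) of all genes were called over palmitate in either direction. Their summed level was 403 to 505 CPM in palmitate, 615 to 643 at low, 614 to 646 at medium and 918 to 969 at high butyrate, and 480 to 492 in control. Nearly all of it was VIL1, the microvillus protein villin, at 921 ± 26.5 CPM in high butyrate and 447 ± 51.6 CPM in palmitate (SD, n = 3). ALPI, intestinal alkaline phosphatase, had 172, 163 and 174 counts at high butyrate against 2, 0 and 0 in palmitate. CDX2, the intestinal homeobox factor, had 26, 33 and 36 counts against 0, 0 and 2 in palmitate. FABP6, which carries bile acids in the ileum, had 47, 62 and 50 counts against 4, 2 and 2 in palmitate, and its call at low butyrate was lost without low-butyrate library 1 (adjusted p = 0.0988). SI, sucrase-isomaltase, was at 0 in all groups but high butyrate. The markers were named after their values were seen, and their part in the FGF19 result was not tested.

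Hepatocyte and HepG2 markers, ALB and AFP among them, summed to between 25400 and 35800 CPM in every library. At high butyrate over palmitate 2 of these 10 were called higher and 6 lower (median log2 change -0.24). Of 2 adipocyte markers tested, 0 were called higher there and 1 lower. Stromal markers summed to 33.6 to 34 CPM at high butyrate and 19.3 to 22 CPM in palmitate, endothelial markers to 11 to 14.1 CPM and 4.25 to 5.55 CPM, and immune markers to 5.02 to 5.84 CPM and 0.776 to 0.942 CPM. Of those tested, 3 of 4 stromal, 2 of 3 endothelial and 2 of 2 immune markers were called higher at high butyrate over palmitate. There 71.5% of all genes were called in either direction, and 1 stromal marker was called lower. Of these 9 markers, 4 passed the filter only through butyrate libraries. Their part in the receptor results was not tested. In bulk RNA, fewer cells of a type and less RNA per cell cannot be told apart.

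FGF21 (ENSG00000105550, GRCh38 chromosome 19, 48755559 to 48758333, plus strand), the fasting hormone of the liver, had no count in any palmitate, high-butyrate or control library. Low butyrate held 0, 4 and 2 counts and medium butyrate 0, 0 and 2. A sum of 0 over the 3 high-butyrate libraries allows up to 3 counts, or 0.0207 CPM, and in palmitate 0.0198 CPM. All 3 of its counts above 0 were even. If mates were counted one by one, the limit would be 3 pairs, and both CPM limits would be higher. FGF21 failed the filter, was not tested, and no fold is given. At this depth no difference in FGF21 was detectable.

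KLB (ENSG00000134962, GRCh38 chromosome 4, 39406853 to 39451536, plus strand, 5 exons) is the co-receptor that both hormones need. The palmitate libraries held 37.4, 47.9 and 43.1 CPM of it, low butyrate 92.5, 93.4 and 95.1 CPM, medium butyrate 99.5, 96 and 98.8 CPM, high butyrate 95.5, 93.5 and 99.2 CPM, and control 52.7, 49.1 and 46.3 CPM. The 9 butyrate libraries were close together and none overlapped the 6 others. Of all genes, 53.6% at low, 53.7% at medium and 72.1% at high butyrate did not overlap palmitate. KLB rose over palmitate by a log2 change of 1.13 at low (SE 0.0741, adjusted p = 7.19e-11), 1.20 at medium (adjusted p = 2.51e-11) and 1.17 at high butyrate (adjusted p = 6.13e-12).

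Against control, high butyrate had 1.95-fold more KLB (log2 change 0.96, SE 0.0737, adjusted p = 1.56e-10). Changes between neighbouring doses were not called: medium over low had a log2 change of 0.07 and high over medium of -0.03 (SE 0.0724, adjusted p = 0.744). The sign of the change in high over medium butyrate turned with the scaling. Medium-butyrate libraries all lay above low-butyrate libraries in CPM, and 8.15% of all genes had no overlap in that comparison. Palmitate averaged 42.8 ± 5.25 CPM of KLB against 49.4 ± 3.2 CPM in control (SD, n = 3), a log2 change of -0.21 that was not called (SE 0.0741, adjusted p = 0.212). That depended on palmitate library 2: without it KLB was called lower in palmitate (log2 change -0.29, adjusted p = 0.0189). Leaving out that library also raised the genes called in this comparison from 22 to 1244. In 15 of 16 alternatives KLB was not called.

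FGFR4 (ENSG00000160867, GRCh38 chromosome 5, 177086886 to 177098144, plus strand), the receptor through which FGF19 acts on hepatocytes, was the most abundant of the 4. It stood at 214, 266 and 254 CPM in palmitate, 342, 322 and 316 CPM at low, 336, 338 and 314 CPM at medium and 266, 271 and 275 CPM at high butyrate, and at 253, 251 and 246 CPM in control. Low and medium butyrate lay above every other library, and high butyrate overlapped palmitate. No overlap with palmitate was found for 53.6% of all genes at low and 53.7% at medium butyrate. Its log2 change over palmitate was 0.42 at low (SE 0.0702, adjusted p = 4.33e-05) and 0.43 at medium butyrate (adjusted p = 2.84e-05).

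At high butyrate the FGFR4 change over palmitate, 0.15 (SE 0.0701), was not called (adjusted p = 0.0683). That call depended on the scaling, with an adjusted p of 0.0228 under DESeq2's size factors and 0.00315 under library totals, and it was made without palmitate library 2 (0.0121). High butyrate was 1.22-fold below medium butyrate (log2 change -0.28, adjusted p = 0.00166). Over control the change was 0.12 (adjusted p = 0.148), although the high-butyrate and control libraries did not overlap, as held for 75.2% of all genes. It was called in 6 of 16 alternatives, among them DESeq2 (0.036), library totals (0.0363) and at least 1 CPM in 3 libraries (0.0233), and over the 16 the adjusted p ran up to 0.461.

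FGFR3 (ENSG00000068078, GRCh38 chromosome 4, 1793293 to 1808872, plus strand), a receptor best known for restraining bone growth, was second in level. Among the 6 tested members it changed least over palmitate at low and medium butyrate. Its values were 127, 159 and 146 CPM in palmitate, 152, 144 and 149 CPM at low, 148, 155 and 143 CPM at medium and 121, 128 and 132 CPM at high butyrate, and 151 CPM in each control library. The high-butyrate libraries were below all low, medium and control libraries but overlapped palmitate, whose library 1 was low. At low and medium butyrate the log2 changes over palmitate were 0.04 (adjusted p = 0.639) and 0.05 (adjusted p = 0.59).

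High butyrate was called lower for FGFR3 against palmitate (log2 change -0.18, SE 0.0696, adjusted p = 0.0249), against medium butyrate (-0.23, adjusted p = 0.00805) and against control (-0.25, adjusted p = 0.00303). These changes were small. Library totals move the median of all genes in high butyrate over palmitate to 0.194, against 0.059 with TMM, and ended all 3 calls, with log2 changes of -0.05 against palmitate (adjusted p = 0.602), -0.15 against medium butyrate (0.107) and -0.18 against control (0.0536). DESeq2's size factors ended only the call against palmitate (0.0885). Of 16 alternatives, 5 kept the call against palmitate, 12 that against medium butyrate and 13 that against control. The call against palmitate was also lost without palmitate library 2 (0.168), palmitate library 3 (0.0634) or high-butyrate library 1 (0.0874).

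FGFR1 (ENSG00000077782, GRCh38 chromosome 8, 38400215 to 38468834, minus strand), the main partner of KLB for FGF21 in fat, rose in 2 steps. It measured 28.9, 35.1 and 32.2 CPM in palmitate, 50.6, 53.5 and 54.6 CPM at low, 55.2, 57 and 53.2 CPM at medium and 92.9, 96.5 and 93.3 CPM at high butyrate, and 31.9, 35.1 and 30.6 CPM in control. Low and medium butyrate overlapped each other, both were clear of palmitate, and high butyrate was clear of both. Among all genes 53.6% were clear of palmitate at low and 53.7% at medium butyrate. Between high and medium butyrate 63.6% were clear. The log2 change over palmitate was 0.72 at low (SE 0.0721, adjusted p = 4.76e-08), 0.78 at medium (adjusted p = 1.25e-08) and 1.55 at high butyrate (SE 0.0724, adjusted p = 3.69e-14).

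The second step, high over medium butyrate, was 1.71-fold for FGFR1 (log2 change 0.77, SE 0.0707, adjusted p = 6.89e-09). Over control, high butyrate was 2.90-fold higher (adjusted p = 5.04e-14). FGFR1 overlaps LETM2, a mitochondrial membrane protein gene, on the opposite strand. The strand setting of the counting is not stated, so reads of the shared stretch cannot be told apart. LETM2 was given 64 to 182 counts per library and FGFR1 1398 or more.

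FGFR2 (ENSG00000066468, GRCh38 chromosome 10, 121478334 to 121598458, minus strand), a receptor of epithelial and mesenchymal tissues, was near 0 without butyrate and had the largest fold over palmitate of the 6 genes tested, at each dose. Counts were 4, 1 and 4 in palmitate, 46, 33 and 50 at low, 45, 48 and 25 at medium and 116, 114 and 113 at high butyrate, and 7, 3 and 7 in control. All 9 butyrate libraries were above the other 6. Only these 9 reached the minimum of the filter on low counts, so the edgeR calls of FGFR2 over palmitate are a description. Separation from palmitate was found for 53.6% of all genes at low, 53.7% at medium and 72.1% at high butyrate. Over palmitate the log2 change was 3.92 at low (SE 0.414, adjusted p = 1.06e-07), 3.85 at medium (adjusted p = 1.29e-07) and 5.27 at high butyrate (SE 0.389, adjusted p = 7.5e-11).

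High over medium butyrate was 2.67-fold for FGFR2 (log2 change 1.41, SE 0.273, adjusted p = 0.000151). The ratio of scaled sums, high butyrate over palmitate, was 40.0 with an exact 95% interval of 20.8 to 88.1, or 17.2 to 166.0 if mates were counted separately. Even then FGFR2 averaged 2.38 ± 0.177 CPM at high butyrate against 94.2 ± 1.96 CPM for FGFR1 (SD, n = 3), and per length it was 0.143% of the summed receptor FPKM. The counts add up all isoforms of a receptor, so the splice forms that bind KLB were not separated.

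**Figure D2:**
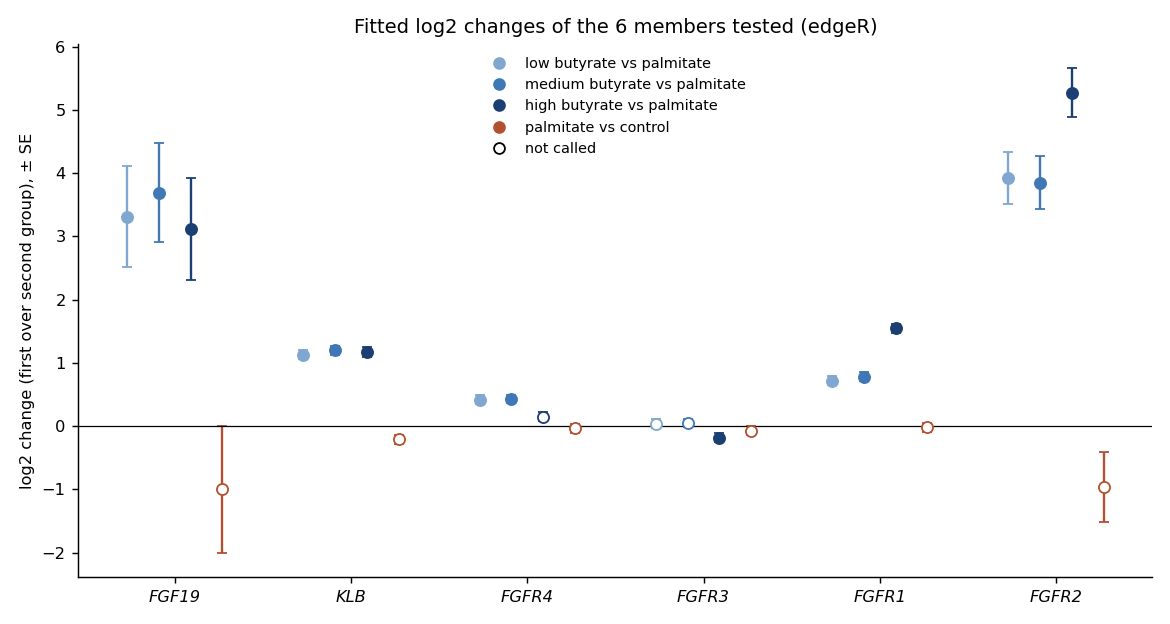
Fitted log2 changes (y axis, first over second group, bars ± SE) of the 6 tested genes (x axis) for low, medium and high butyrate over palmitate and for palmitate over control; filled points are called at an adjusted p under 0.05. FGFR1 and FGFR2 step up at high butyrate, KLB does not, FGFR4 and FGFR3 are lower at the high than at the medium dose, and no palmitate over control point is filled. FGF19 and FGFR2 passed the filter on low counts only through butyrate libraries.

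FGF19 and FGFR2 passed the filter on low counts only through butyrate libraries, so the counts of members called are a description. Of the 6 tested members, 5 were called at low butyrate over palmitate, all higher, where 49.9% of the 20309 genes tested were called in either direction. At medium butyrate it was again 5, all higher, against 51.5% of all genes. At high butyrate 5 were called, 4 higher and FGFR3 lower, against 71.5% of all genes, a share not far below that of the members. High over medium butyrate called 4, FGFR1 and FGFR2 higher and FGFR3 and FGFR4 lower, against 55.6% of all genes. High butyrate over control called 5, 4 higher and FGFR3 lower, against 70% of all genes.

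Medium over low butyrate called none of the 6 in edgeR, and no gene of the table (0%), with 490 genes at an unadjusted p under 0.05 but none of the members. DESeq2 called no gene there either, and limma on FPKM called 1, which was no member. Palmitate over control called none of the members (adjusted p from 0.212 to 0.94), where 0.108% of all genes were called, 22 by edgeR and 335 by DESeq2. An unadjusted p under 0.05 was found there for 2893 genes and, of the members, for KLB. The comparisons over palmitate share its 3 libraries, and palmitate library 1 had the lowest FPKM of KLB, FGFR1, FGFR3 and FGFR4 in its group.

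Ratios within a library need no scaling between libraries. The 4 receptors summed to 79 ± 11 FPKM in palmitate, 101 ± 1.57 at low, 102 ± 5.35 at medium and 92.6 ± 4.38 at high butyrate, and 85 ± 0.635 in control (SD, n = 3). FGFR4 made up 61.7% of that sum in palmitate, 66.8% at low, 66.8% at medium and 63.9% at high butyrate, and 61.1% in control. FGFR3 held 36% in palmitate, 30.1% at low, 30% at medium and 29.7% at high butyrate, and 36.7% in control.

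FGFR4 over FGFR3 was 2.2 ± 0.06 (SD) in the 9 butyrate libraries (2.1 to 2.28) and 1.69 ± 0.0402 in the 6 others (1.64 to 1.76), with no overlap. KLB over FGFR4 was 0.251 ± 0.0269 with butyrate (0.217 to 0.289) and 0.149 ± 0.0115 without (0.136 to 0.167), also without overlap. FGFR1 took 4.13% ± 1.58 of the receptor sum with butyrate (2.79 to 6.34%) and 2.24% ± 0.107 without (2.11 to 2.40%). High butyrate carried most of that last difference, at 6.22% against 3.03% at low and 3.13% at medium butyrate. These 3 ratios were chosen after the values were seen, and the 9 and the 6 libraries pool groups of unlike treatment. They are therefore a description, given without a p-value.

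**Figure D3:**
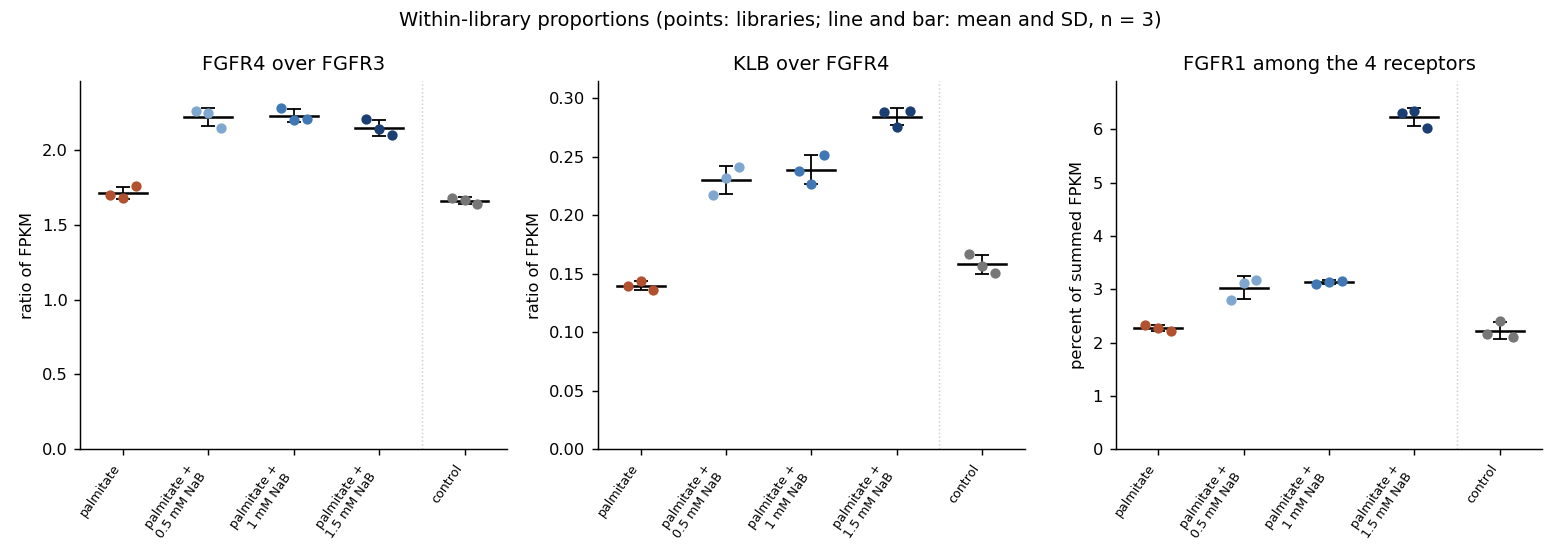
FGFR4 over FGFR3 and KLB over FGFR4 (ratios of FPKM) and FGFR1 as a percent of the summed FPKM of the 4 receptors (y axes, linear from 0), by group (x axis); points are libraries, line and bar the mean and SD of 3. In each panel all 9 butyrate libraries lie above the 6 palmitate and control libraries, and FGFR1 reaches 6.03 to 6.34% at high butyrate.

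Across the 15 libraries, which share their groups, the Pearson correlation of log2 CPM was 0.928 between FGFR1 and FGFR2, 0.921 between KLB and FGFR2 and 0.884 between FGF19 and KLB. FGFR3 had correlations with the other 5 tested members from -0.543 to 0.361. Of 13316 other genes, the most like KLB were FASN, the fatty acid synthase (r = 0.993), and the synaptic vesicle gene SV2A (0.991), and the most opposite was TBCK (-0.986). FGFR1 was most like LINC01694 (0.996) and SREBF1, a transcription factor of lipid synthesis (0.995), and most opposite to ACAT2, an acetyl-CoA acetyltransferase (-0.995). FGFR2 was most like RYR1, a calcium release channel (0.993), and IFI27L2 (0.992), and most opposite to TNFRSF1A, a receptor of tumour necrosis factor (-0.984). FGFR4 was closest to ISYNA1, an inositol synthesis enzyme (0.985), and TMEM132A (0.978), and opposite to CTNNAL1 (-0.982). FGFR3 was closest to SARDH, sarcosine dehydrogenase (0.956), and GCN1 (0.955), and opposite to TERF2IP (-0.965). FGF19 was closest to the nucleotide receptor P2RY2 (0.938) and the inhibin subunit INHBB (0.929), and opposite to the kinase PIM1 (-0.944). How common such values were differed between members: the share of all genes with a correlation above 0.9 was 12.5% for FGFR1, 10.6% for FGFR2 and 7.89% for KLB, but 0.991% for FGFR4, 0.293% for FGFR3 and 0.218% for FGF19.

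The other ligands of the family were rare in these cells too. Of 16 named, 12 had a row and 6 were tested. FGF2, FGF9, FGF18 and FGF22 passed the filter on low counts only through butyrate libraries, so their direction was set by it and no count is read from the list. FGF5 had 0 counts in each high-butyrate library, against 2, 0 and 0 in palmitate. It reached the minimum of the filter in 2 libraries, both at low or medium butyrate, and was not tested. FGF17 averaged 3.61 ± 0.274 CPM at high butyrate and 1.58 ± 0.181 CPM in palmitate (SD, n = 3; log2 change 1.19, adjusted p = 2.55e-06). FGF9 had 46, 74 and 48 counts at high butyrate against 0, 4 and 2 in palmitate, and FGF18 49, 61 and 60 against 2, 3 and 2. FGF22 had 61, 64 and 53 counts against 2, 16 and 8, and FGF2 20, 14 and 12 against 10, 0 and 0. The call for FGF2 was lost without palmitate library 2 (adjusted p = 0.0586), palmitate library 3 (0.0727) or high-butyrate library 1 (0.0612). FGF2, FGF9, FGF18 and FGF22 were named after their values were seen.

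Among other receptors and binding proteins, KL, the alpha-Klotho co-receptor of FGF23, had 6, 12 and 9 counts at high butyrate and 0 in all 12 other libraries. Against a floor of 3 counts over the palmitate group its ratio was 9.43, which leaves out the counting error of the high-butyrate counts. If mates were counted one by one, the floor would be higher and the ratio lower. KL failed the filter and was not tested. FGFRL1, a receptor without a kinase, fell at high butyrate to 73.2 ± 9.59 CPM, against 108 ± 23.6 CPM in palmitate (SD, n = 3; log2 change -0.57, adjusted p = 0.000629), though the libraries overlapped. FGFBP3, which releases growth factors from the matrix, fell to 7.23 ± 0.647 CPM, against 12.3 ± 3.24 CPM in palmitate (log2 change -0.77, adjusted p = 4.81e-05). LCTL, a Klotho relative, rose 2.98-fold at low butyrate (adjusted p = 7.46e-06) but had 0.84 CPM at high butyrate and 0.744 CPM in palmitate (adjusted p = 0.507).

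Heparan sulfate carriers bind growth factors at the cell surface, and enzymes build the chains. At high butyrate over palmitate 8 of 19 tested rose and 6 fell (median log2 change 0.05, against 0.06 over all genes), where 71.5% of all genes were called; 14 of 19 is close to that share. The syndecan SDC3 rose to 83.3 ± 5.27 CPM, against 30 ± 1.12 CPM in palmitate (SD, n = 3; log2 change 1.47, adjusted p = 7.89e-15). SDC2 fell to 73 ± 3 CPM, against 247 ± 38 CPM (log2 change -1.76, adjusted p = 4e-14), SDC1 fell 2.31-fold and the glypican GPC6 fell 2.73-fold.

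Signalling genes below the receptors were 11 higher and 15 lower of 27 tested at high butyrate over palmitate (median log2 change -0.22 against 0.06 over all genes, of which 71.5% were called). At low butyrate 5 were higher and 11 lower, where 49.9% of all genes were called. STAT3 rose to 339 ± 12.6 CPM, against 145 ± 10.2 CPM in palmitate (SD, n = 3; log2 change 1.23, adjusted p = 1.2e-13), and the adaptor GRB2 rose 1.75-fold. The kinases AKT1 and RPS6KA3 fell 2.26-fold and 2.76-fold (adjusted p = 1.39e-12 and 2.7e-14).

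Feedback inhibitors and targets of the FGF and ERK pathway went both ways: 8 of 19 tested rose and 9 fell at high butyrate over palmitate (median log2 change 0.01), where 71.5% of all genes were called. The immediate early gene EGR1 rose to 98.4 ± 13.8 CPM, against 9.36 ± 1.31 CPM in palmitate (SD, n = 3; log2 change 3.40, adjusted p = 9.3e-16). IL17RD, a membrane inhibitor of FGF receptors, rose 20.8-fold to 11.5 ± 1.11 CPM, and the ERK phosphatase DUSP6 rose 1.89-fold (adjusted p = 8.59e-09). SPRY1 and SPRY4, Sprouty inhibitors, fell 2.18-fold and 2.69-fold, and the transcription factor ETV4 fell 1.77-fold (adjusted p = 5.53e-11). At low butyrate SPRY1 and SPRY4 were already lower, 1.73-fold and 1.32-fold, whereas EGR1 (adjusted p = 0.0798) and DUSP6 (0.173) were not called.

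**Figure D4:**
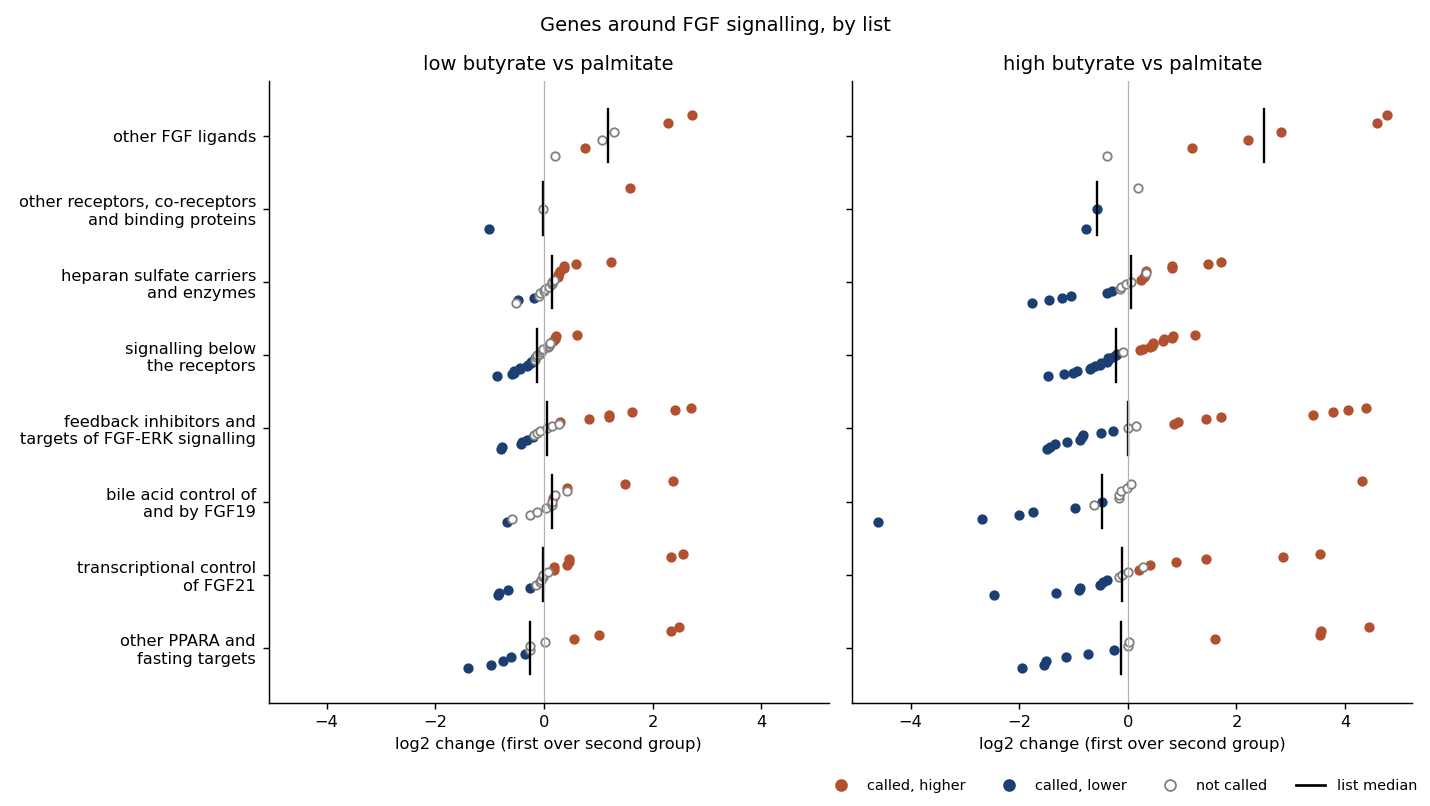
Log2 change (x axis) of the tested genes of 8 lists around FGF signalling (y axis, 1 row a list, 1 point a gene) for low butyrate over palmitate (left) and high butyrate over palmitate (right); coloured points are called, black ticks are list medians. At high butyrate 71.5% of all genes were called. In the row of other FGF ligands 4 of the 6 genes passed the filter on low counts only through butyrate libraries. The same held for 1 of 13 bile acid genes and 1 of 12 PPARA and fasting targets. Of the bile acid genes 6 of 13 were called lower and 1 higher.

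Of 13 tested genes that control FGF19 or answer to it in bile acid metabolism, 4 rose and 1 fell at low butyrate over palmitate, where 49.9% of all genes were called. At high butyrate 1 rose, 6 fell and 6 were not called (median log2 change -0.47 against 0.06 over all genes), so that 7 of 13 were called where 71.5% of all genes were. NR1H4, which encodes the bile acid receptor FXR, fell to 18.1 ± 0.811 CPM at high butyrate, against 72.6 ± 7.49 CPM in palmitate (SD, n = 3; log2 change -2.01, adjusted p = 1.16e-14). NR0B2, which encodes SHP, a repressor that FXR induces, fell to 21.2 ± 0.389 CPM, against 137 ± 11.1 CPM (log2 change -2.69, adjusted p = 5.22e-17). CYP7A1, the rate-limiting enzyme of bile acid synthesis that FGF19 represses, had 0, 0 and 2 counts at high butyrate against 18, 8 and 36 in palmitate. The ratio of scaled sums was 0.0338, with an exact 95% interval of 0.00401 to 0.127, or 0.00083 to 0.203 in pairs. CYP27A1 of the alternative pathway and the bile acid exporter subunit SLC51A fell 1.97-fold and 3.33-fold. The gene that rose was FABP6, which passed the filter only through butyrate libraries.

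Factors that govern FGF21 transcription split 6 higher and 7 lower of 17 tested at high butyrate over palmitate (median log2 change -0.10), 13 of 17 called where 71.5% of all genes were. PPARA, the fasting receptor that induces FGF21, rose to 39.1 ± 0.83 CPM at low butyrate and 37.5 ± 4.72 CPM at high butyrate, against 28.3 ± 5.55 CPM in palmitate (SD, n = 3; adjusted p = 0.00149 and 0.00254). CREB3L3, a liver factor that acts with PPARA, rose to 81.7 ± 13.8 CPM at high butyrate, against 6.99 ± 0.824 CPM in palmitate (log2 change 3.54, adjusted p = 7.72e-16). PPARD rose 2.72-fold and HDAC3, a histone deacetylase, 1.84-fold. PPARG fell 5.50-fold, and the stress factor ATF4 fell to 337 ± 13.1 CPM, against 626 ± 28.9 CPM (adjusted p = 1.39e-10).

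PPARA and fasting targets other than FGF21 were 4 higher and 6 lower of 12 tested at high butyrate over palmitate, where 71.5% of all genes were called. PDK4, 1 of the 12, passed the filter on low counts only through butyrate libraries, so its direction was set by it. TXNIP, a redox and glucose uptake regulator, rose to 1160 ± 70.4 CPM, against 99.5 ± 8.21 CPM in palmitate (SD, n = 3; log2 change 3.55, adjusted p = 8.03e-18). FABP1, the liver fatty acid carrier, fell 2.93-fold, and EHHADH, an enzyme of peroxisomal fatty acid oxidation, fell 2.82-fold (adjusted p = 1.07e-13).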

How the data were processed

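Poly(A)-selected RNA of 15 HepG2 cultures was read as pairs on a DNBSEQ-T7 sequencer, per the labels' protocols. The table the authors deposited holds raw counts per Ensembl gene and FPKM values beside them. FPKM equalled count over library total and a fixed gene length, which was tested on the 11013 genes that reach 100 counts in each library and held within 1% for all of them. FastQC, HISAT2, featureCounts, DESeq2 and the builds GRCh38 and hg38 are named in the submitters' processing notes, without versions; annotation release and strand setting are not given in the sources used here. Even numbers made up 69.19% of the counts between 1 and 20 and 50.48% of those between 100 and 1000, so the mates of a pair were probably counted one by one. Totals were 35349827 to 61086976 counts per library; that depth limits FGF19, FGF21 and FGFR2. Within groups, pairs of libraries had a chi-square of 5.171 to 55.531 per gene, so none was a copy of another, and the palmitate libraries differed most.

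Genes were matched by symbol; positions and exon lengths are those of GENCODE 29. From the counts, 20309 genes passed filterByExpr over the 5 groups. A single quasi-likelihood model took in the 15 libraries (edgeR 4.0.16, R 4.3.3, TMM, a coefficient per group, 10 residual degrees of freedom), with Benjamini-Hochberg adjustment over all genes tested and calls at an adjusted p below 0.05. Fold changes are first over second group; the SE follows from that test. Counts near 0 were also set out as ratios of scaled sums with exact (Clopper-Pearson) 95% intervals. Alternatives were DESeq2 (1.42.0) and its size factors, library totals, no filter, at least 1 CPM in 3 libraries, 2 groups alone, a replicate block, limma-trend (limma 3.58.1) on log2(FPKM + 1) and log2(FPKM + 0.1), an adjusted p under 0.01, and each library left out. The pipeline was tested on simulated counts. Ratios of FPKM within a library were added after the data had been seen, with their alternatives. Figures were drawn with matplotlib 3.10.9.

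The members and gene lists were chosen with earlier results of these data known. From each list up to 4 genes were named (3 for locus neighbours) by smallest adjusted p at high butyrate over palmitate, among those called in any comparison whose average log2 CPM reached 0, beside a panel of 12 genes and, per member, 3 genes by correlation. FGF4, FGF6, FGF10, FGF16, SLC10A2 and ADIPOQ were not analysed here.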

Additional observations from a re-analysis of the deposited data

How the results depend on the processing

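The number of members called was equal to that reported in 96 of 112 repeats over 7 comparisons. It was 4 to 5 at each dose over palmitate, 3 to 4 in high over medium butyrate, 4 to 6 in high butyrate over control and 0 throughout in medium over low; palmitate over control had 0 to 1 with a library left out (1, KLB, without palmitate library 2). KLB, FGFR1, FGFR2 and FGF19 kept their calls over palmitate at all 3 doses in every alternative that tested them (15 of 16 for FGF19, which did not reach 1 CPM), although on the log2(FPKM + 1) scale the change of FGFR2 at high butyrate is 0.18 and that of FGF19 0.17. For FGF19 and FGFR2 these calls are a description, as both passed the filter on low counts only through butyrate libraries. Signs turned only for changes that were not called. With a library left out, palmitate over control ran from -0.09 to 0.05 for FGFR1, -0.15 to 0.01 for FGFR3 and -0.09 to 0.06 for FGFR4. FGFR3 ran from -0.04 to 0.12 at low and from -0.03 to 0.12 at medium butyrate over palmitate. Medium over low butyrate ran from -0.28 to 0.16 for FGFR2, -0.03 to 0.03 for FGFR3 and -0.01 to 0.05 for FGFR4, and FGFR3 was 0.00 with no filter. KLB at high over medium butyrate was 0.01 with DESeq2, its size factors or at least 1 CPM, and 0.04 with library totals or either FPKM fit. FGFR3 at high butyrate over palmitate lost its call in 11 of 16 alternatives (adjusted p up to 0.672), and FGFR4 gained one in 7 of 16 (down to 0.00315) and, over control, in 6 of 16 (down to 0.0233); the cause was not tested. The FGFR1 share of receptor FPKM differed between libraries with and without butyrate by 0.834 percentage points when high butyrate was left out, against 1.88 with it. For other genes named, 5350 of 5494 values kept direction and call, 144 lost the call and 0 reversed.

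The count of all genes called in palmitate over control was 22, against 335 with DESeq2 (212 higher), 40 with library totals (5 higher), 600 with no filter, 3 with the 2 groups alone, 9 and 7 in the FPKM fits and 4 to 1244 with a library left out. Medium over low butyrate called 0, against 39 with no filter, 1 with the 2 groups alone and 1 in each FPKM fit. Library numbers did not pair libraries across groups: over 30 same-number pairs the correlation of deviations was -0.06 to 0.052. With the replicate block, the members called were 0 in palmitate over control, 5, 5 and 5 at low, medium and high butyrate over palmitate, 0 in medium over low, 4 in high over medium and 5 in high butyrate over control. Depth limits FGF21, FGF19 and FGFR2, whose levels without butyrate rest on 0 to 7 counts a library.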

Other observations

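Genes beside the members in the genome moved in both directions at high butyrate over palmitate (edgeR quasi-likelihood test, adjusted over all genes tested). Neighbours here are genes named from the region of each member, and many are not adjacent to it. SHANK2 lies 763 kb and MYEOV 331 kb from FGF19, KLHL5 280 kb from KLB and PRELID1 206 kb from FGFR4. Next to FGF19, 3 of 8 tested neighbours rose and 3 fell. MYEOV, first described in myeloma, rose to 50.1 ± 1.72 CPM, against 11.8 ± 0.864 CPM in palmitate (SD, n = 3; log2 change 2.09, adjusted p = 7.66e-16), and it was lower in palmitate than in control (log2 change -0.59, adjusted p = 0.00131), a call lost with only those 2 groups in the fit (adjusted p = 0.159). LTO1, a ribosome maturation factor, rose 1.94-fold, and SHANK2, a scaffold protein, fell 2.28-fold. CCND1, cyclin D1, rose 1.23-fold at low butyrate and fell 1.21-fold at high butyrate, the fall being lost with library totals (adjusted p = 0.0899) and in the FPKM fits (0.117 and 0.116).

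In the region of FGFR2, which rose 38.5-fold, 4 of 5 tested neighbours fell. Among them were NSMCE4A (2.22-fold, 359 kb away), WDR11 (1.81-fold, 569 kb away) and ATE1 (1.76-fold, 142 kb away). Of 8 genes beside FGFR3, 6 fell and 2 rose; NSD2, a histone methyltransferase, fell 2.50-fold and the spindle protein TACC3 2.23-fold. Beside KLB, 2 of 9 rose and 3 fell, with SMIM14 2.58-fold higher and KLHL5 1.73-fold lower. Beside FGF21, itself near 0, 5 of 11 rose and 3 fell. These counts are a description, as FUT1 and FUT2 passed the filter on low counts only through butyrate libraries. Those that rose include CA11, at 4.13 ± 0.252 CPM in high butyrate and 0.26 ± 0.0651 CPM in palmitate, and DBP, a circadian factor, 3.05-fold higher. Beside FGFR4, 2 of 9 rose and 3 fell, PRELID1 1.63-fold among them. The neighbours called were 5 of 5 beside FGFR2, 8 of 8 beside FGFR3, 8 of 11 beside FGF21, 6 of 8 beside FGF19 and 5 of 9 beside each of KLB and FGFR4, where 71.5% of all genes were called; no chromosome-wide comparison was made.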
